A study of Homo sapiens with 20 samples.

Results

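The genes described here are 3 FOXO transcription factors, FOXO1, FOXO3 and FOXO4, and 5 genes known as their targets, FBXO32, CCNG2, TXNIP, PIK3IP1 and BCL6. They were taken by symbol from the 50775 features of the count tables, all 8 were found, and all 8 passed the filter on low counts that left 16698 genes tested. RNA sequencing counts came from 5 established human cancer cell lines, each kept untreated or given torkinib (PP242) for 72 h. Torkinib is a compound that blocks the MTOR kinase at its ATP site, and each group had 2 libraries, 20 in all. The study asked how blocking MTOR alters DNA repair genes, and the comparison here is torkinib against untreated in each line. The liposarcoma line 94T778 (well differentiated) received 10 µM, the melanoma lines A375 and SKMEL28 and the breast cancer line AU565 received 4 µM, and the breast cancer line SKBR3 received 0.8 µM. The labels give no time and no vehicle for the untreated libraries, and the growth medium differed between lines. SKBR3 and AU565 are known to derive from the same patient, so they are not independent examples of breast cancer. Line and dose cannot be told apart when responses are compared, except among A375, SKMEL28 and AU565, which had the same dose. The labels do not say whether both libraries of a group are separate cultures, and the p-values cover no more than the spread between libraries, technical or not.

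FOXO factors are forkhead transcription factors at the end of the insulin and growth factor pathway. When phosphoinositide 3-kinase is active, the kinases AKT and SGK phosphorylate them, adaptor proteins of the YWHA family bind them, and they are held in the cytoplasm. The MTOR complex that contains RICTOR phosphorylates AKT and SGK, so an inhibitor of the MTOR kinase acts upstream of this step. In the nucleus FOXO factors bind DNA with the core letters GTAAACA and turn on genes for growth arrest, autophagy, protein breakdown, apoptosis and energy use. Messenger RNA counts do not show where a FOXO protein is or whether it is phosphorylated.

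Promoter sequences were read from RefSeq (GRCh38.p14, a later build than the hg19 named in the submitters' notes) for 7 of the 8 genes, in 13 windows from 250 bases before to 50 bases after an annotated start. FBXO32 was not matched. The letters GTAAACA, searched on both strands, were in 1 window each of TXNIP, PIK3IP1 and FOXO4, against 3.42% of all 35116 windows of that length. The longer form GTAAACAA, which contains the shorter one, was in the TXNIP window and in 0.954% of all windows. The carbohydrate response letters, CACGNG repeated after a gap of 5 bases, the form bound by the glucose sensing factors MLXIP and MLXIPL, were in the same TXNIP window and in 0.057% of all windows. The following stretches are shown because they hold these letters, in capitals. The TXNIP stretch is the 150 bases before the start (chr1:145996580-145996729, minus strand), with GTAAACAA beginning 124 bases and the carbohydrate response letters 88 bases before it. The PIK3IP1 stretch (chr22:31292454-31292483, minus strand) holds the core on the opposite strand, from base 17 after a start, and the FOXO4 stretch (chrX:71095863-71095892, plus strand) holds it from base 24 after the start.
TXNIP: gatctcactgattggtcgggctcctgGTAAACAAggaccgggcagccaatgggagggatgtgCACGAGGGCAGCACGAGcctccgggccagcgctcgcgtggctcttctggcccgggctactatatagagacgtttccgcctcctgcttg
PIK3IP1: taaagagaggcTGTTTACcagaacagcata
FOXO4: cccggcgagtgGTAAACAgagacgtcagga
The insulin response letters CAAAACA were in 0 of the 13 windows and in 4.92% of all windows, and the E-box letters CACGTG were in the CCNG2 window, 30 bases before its start, and in 7.26% of all windows. A match describes letters in a window and says nothing of binding in these cells.

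Libraries held 4040023 to 9737903 counted reads, and levels are given as normalised CPM, the count as parts of the library total after scaling with TMM factors (CPM, a usual sequencing unit). Marker genes fitted the labels of SKMEL28, 94T778 and the breast lines. As parts of the library totals, the summed melanocyte markers stood at 7612 to 7980 CPM in untreated SKMEL28, at 646 to 712 CPM in untreated A375 and at no more than 40.7 CPM in the untreated and treated libraries of the other 3 lines. Breast markers summed to 23053 to 24006.5 CPM in untreated SKBR3 and 18201 to 18216 CPM in untreated AU565, and to no more than 512 CPM in the other untreated lines. Adipocyte markers did not mark the liposarcoma line. They summed to 39.2 to 41.5 CPM in untreated 94T778 and 133 to 135 CPM in untreated A375, and ADIPOQ was at 0 in all 20 libraries. The 12q amplicon genes that mark liposarcoma of this type summed to 11971 to 12153 CPM in untreated 94T778. Several untreated libraries stood apart. Genes marking another line had at least 50 CPM in both its untreated libraries and no counts in the treated libraries of the line examined. Treated libraries could therefore not be examined in this way. A375 untreated replicate 1 held counts of all 24 genes that mark 94T778, at a median of 1.97% of their 94T778 level, against 12 of 24 and 0.0252% in replicate 2. SKBR3 untreated replicates differed from each other more than any other pair, with a chi-square per gene of 11.1 against 1.34 to 3.15 in the other 9 groups. Mitochondrially encoded genes took 7.63% of counts in the first and 4.44% in the second, and replicate 2 held counts of 68 of 75 SKMEL28 marker genes against 44 in replicate 1. SKMEL28 untreated replicate 2 held counts of 17 of 21 A375 marker genes, at a median of 0.345% of their A375 level. The part of these differences in the results below was not tested, and each result that turns on 1 of these libraries is also given without it. The tests share an estimate of spread over all groups. SEs and p-values of SKBR3 can therefore understate the spread between its own untreated replicates.

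Torkinib changed the 8 genes by line rather than as 1 block. A gene was called changed at an adjusted p below 0.05 in edgeR's quasi-likelihood test, adjusted by Benjamini-Hochberg over all 16698 genes. In 94T778, FOXO1, TXNIP and BCL6 rose and PIK3IP1 fell, 4 of 8 genes, beside 47.5% of all genes tested (23.8% higher and 23.8% lower). In A375, FOXO1, FOXO3, FBXO32 and TXNIP rose and FOXO4 and CCNG2 fell, 6 of 8 beside 42.8% (18.5% higher, 24.3% lower). SKMEL28 had the fewest calls, with rises of FOXO1 and FBXO32, 2 of 8 beside 44.0% (20.4% higher, 23.7% lower). Fitted on its own 4 libraries, SKMEL28 had rises of 6 of the 8 genes, beside 62.4% of the 13167 genes tested in that fit (30.7% higher, 31.7% lower); PIK3IP1 had too few counts to be tested in it. In SKBR3, all except FOXO4 and BCL6 rose and BCL6 fell, 7 of 8 beside 51.3% (24.6% higher, 26.7% lower). In AU565, all except FOXO1 and FOXO4 rose, 6 of 8 beside 55.6% (26.9% higher, 28.6% lower). Because torkinib altered so many genes, the count for 94T778 and that for AU565 are near the background. In each breast line 6 of 8 rose, where 24.6% and 26.9% of all genes rose. The median log2 fold change of the 8 genes was 1.80 in SKBR3, 0.87 in AU565, 0.58 in A375, 0.19 in SKMEL28 and 0.06 in 94T778, while that of all genes tested was between -0.02 and 0 in each line. No gene was called in the same direction in all 5 lines; FOXO1, FBXO32 and TXNIP each rose in 4.

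**Figure D1:**
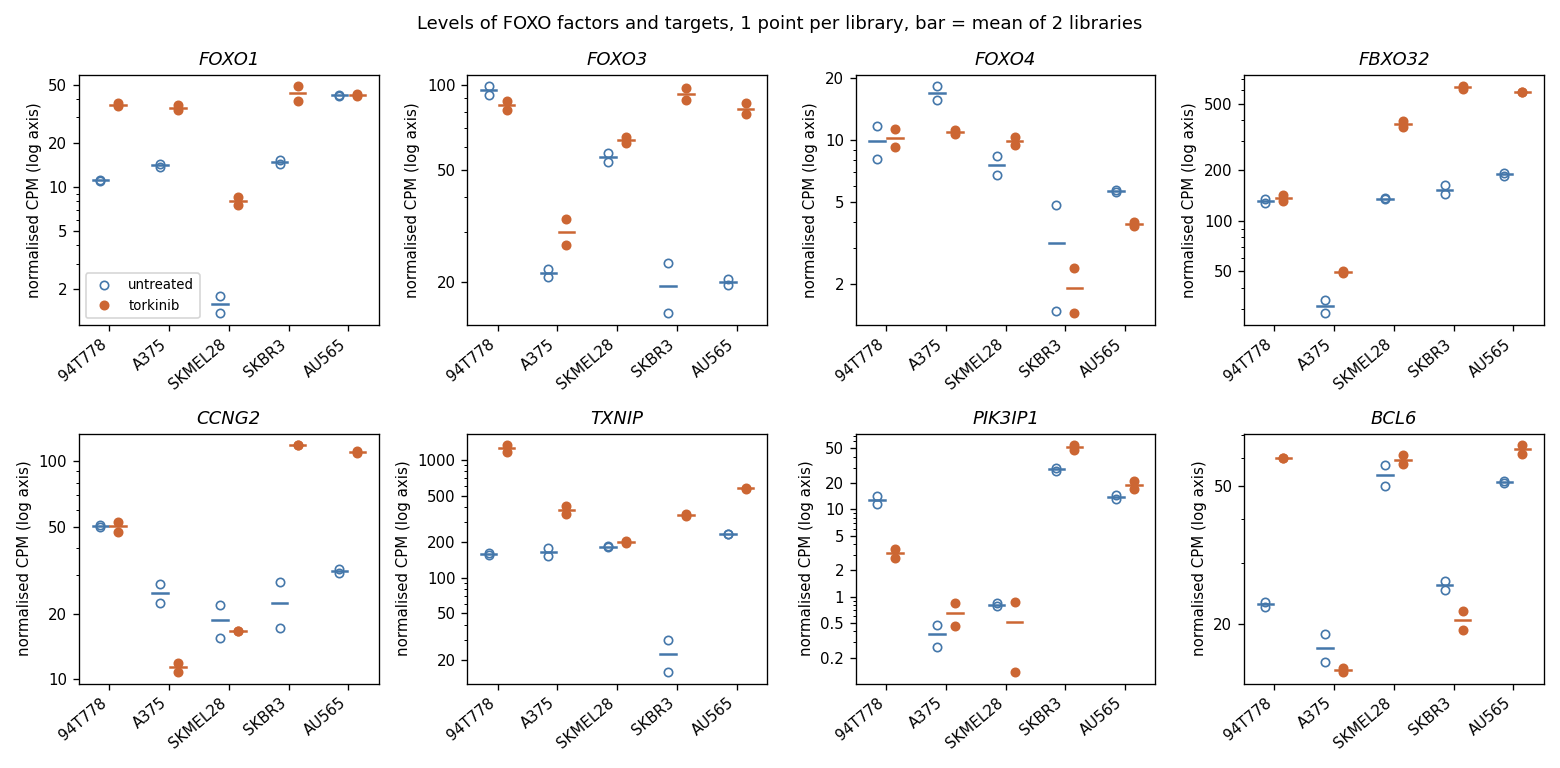
Normalised CPM on a log axis for each of the 8 genes in the 5 lines, with open points for untreated and filled points for torkinib libraries and bars for the mean of 2 libraries. FOXO1 in AU565 has both groups at 42.0 to 43.2 CPM, and TXNIP in SKBR3 moves from 15.8 and 29.8 to 348 and 337 CPM.

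FOXO1, the factor best known for insulin control of metabolism, rose 2.46-fold to 4.96-fold in 4 lines, and no change was detected in AU565. In 94T778 its level was 11.1 and 11.3 CPM in the untreated libraries and 37.4 and 36.2 CPM with torkinib. In A375 it was 14.5 and 13.8 CPM against 33.5 and 36.7 CPM. SKBR3 libraries held 14.3 and 15.4 CPM untreated and 38.9 and 49.1 CPM treated. In these 3 lines the treated libraries lay far above the untreated ones. SKMEL28 had the lowest level, 1.37 and 1.79 CPM from 7 and 15 reads, and rose to 8.63 and 7.59 CPM from 79 and 56 reads. AU565 had the highest untreated level, 42.3 and 42.8 CPM, and stayed at 43.2 and 42.0 CPM. The untreated and treated AU565 libraries overlapped, and they lay within the range of the treated SKBR3 libraries. The log2 fold change was 1.72 in 94T778 (SE 0.14, edgeR adjusted p = 7.12e-13) and 1.30 in A375 (SE 0.13, edgeR adjusted p = 2.17e-10). It was 2.31 in SKMEL28 (SE 0.27, edgeR adjusted p = 6.15e-09) and 1.57 in SKBR3 (SE 0.13, edgeR adjusted p = 1.11e-12). In AU565 it was 0.00, with a 95% interval from -0.22 to 0.22. The order of the untreated levels was AU565, SKBR3, A375, 94T778 and SKMEL28, where SKBR3 and A375 overlapped. The highest untreated group mean was 26.9 times the lowest, and with torkinib this ratio was 5.43. In the annotation FOXO1 overlaps LINC00598 on the same strand and the pseudogene RLIMP1 on the opposite strand.

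FOXO3, a factor tied to stress resistance and cell survival, rose 4.73-fold in SKBR3 and 4.11-fold in AU565 and by less in A375, and its changes in SKMEL28 and 94T778 did not pass the test. SKBR3 went from 15.4 and 23.3 CPM to 88.6 and 97.5 CPM, and AU565 from 20.5 and 19.5 CPM to 78.8 and 85.8 CPM. A375 went from 22.2 and 20.8 CPM to 27.0 and 33.3 CPM, a much smaller step from a similar start. In SKMEL28 the libraries held 57.3 and 53.4 CPM untreated and 65.3 and 62.0 CPM treated. The 94T778 line had the highest untreated level, 92.3 and 98.9 CPM, and 81.4 and 88.0 CPM with torkinib. The treated AU565 libraries overlapped the treated 94T778 libraries, and the treated SKBR3 libraries lay just above those. The log2 fold change was 2.24 in SKBR3 (SE 0.12, edgeR adjusted p = 1.22e-17). The rise in AU565 had an SE of 0.12 on the log2 scale (edgeR adjusted p = 3.56e-17). In A375 it was 0.47 (SE 0.14, edgeR adjusted p = 0.00542), and this call was lost without untreated replicate 2 (adjusted p = 0.0507) or torkinib replicate 2 (adjusted p = 0.124) of that line. Without A375 untreated replicate 1 the call remained, at 0.52 (edgeR adjusted p = 0.0152). The changes of 0.21 in SKMEL28 (edgeR adjusted p = 0.105) and -0.18 in 94T778 (edgeR adjusted p = 0.141) did not pass the test, although the SKMEL28 change passed it in a fit of that line alone (0.24, edgeR adjusted p = 0.0081) and without SKBR3 untreated replicate 1 (adjusted p = 0.0455) or replicate 2 (adjusted p = 0.0407). Without replicate 1 or 2 of untreated SKBR3 the change in that line was 1.99 or 2.59. FOXO3 has a near-identical copy, FOXO3B, which held 0 to 8 counts per library. The pseudogene SUMO2P8 overlaps FOXO3 on the opposite strand.

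FOXO1 and FOXO3 therefore changed in different lines. FOXO1 rose in 94T778 and SKMEL28, where FOXO3 did not pass the test, FOXO3 rose in AU565, where FOXO1 did not, and both rose in A375 and SKBR3. For AU565 this difference could be set against lines at the same dose. The FOXO1 response was larger in A375 than in AU565 by 1.30 (log2, SE 0.17, edgeR adjusted p = 8.24e-08) and in SKMEL28 than in AU565 by 2.31 (SE 0.30, edgeR adjusted p = 7.09e-08). The FOXO3 response was smaller in A375 than in AU565 by 1.57 (log2 difference -1.57, SE 0.18, edgeR adjusted p = 9.46e-09) and smaller in SKMEL28 than in AU565 (log2 difference -1.83, SE 0.16, edgeR adjusted p = 1.18e-11).

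**Figure D2:**
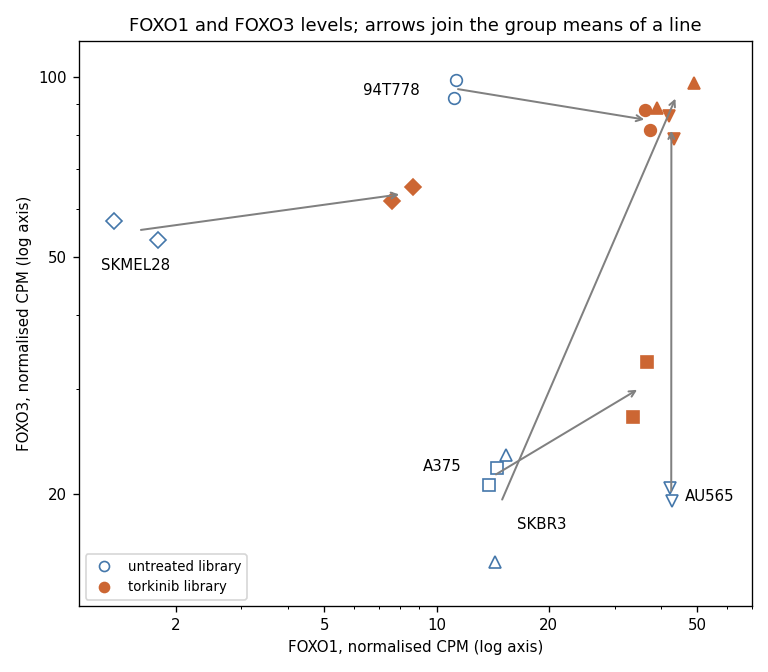
FOXO1 against FOXO3 in normalised CPM on log axes, 1 point per library, open for untreated and filled for torkinib, with an arrow from the untreated to the treated mean of each line. The AU565 arrow is vertical, at FOXO1 levels of 42.0 to 43.2 CPM, and the arrows of 94T778 and SKMEL28 run along the FOXO1 axis.

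FOXO4, the X-linked family member, was low in all lines, at no more than 18.3 CPM. In A375 it fell from 18.3 and 15.6 CPM to 11.3 and 10.8 CPM. In SKBR3 it held 1.47 and 4.84 CPM, from 8 and 33 reads, and with torkinib 2.38 and 1.44 CPM, from 12 and 9 reads. In that line 1 treated library lay between the untreated ones and the other just below both. The log2 fold change in A375 was -0.62 (SE 0.20, edgeR adjusted p = 0.0122), a call not made by DESeq2 (adjusted p = 0.061). Leaving out A375 untreated replicate 1 gave -0.50 (adjusted p = 0.0979), leaving out torkinib replicate 1 gave -0.66 (adjusted p = 0.0597) and leaving out torkinib replicate 2 gave -0.59 (adjusted p = 0.0544). In SKBR3 the change was -0.83 (SE 0.44, edgeR adjusted p = 0.112), and it was -1.38 without untreated replicate 1 (adjusted p = 0.00372) and 0.33 without untreated replicate 2 (adjusted p = 0.732). No test was passed in 94T778 (0.05, from 11.8 and 8.07 to 9.22 and 11.3 CPM), SKMEL28 (0.41, from 8.41 and 6.81 to 9.50 and 10.4 CPM) or AU565 (-0.55, from 5.74 and 5.63 to 3.99 and 3.81 CPM). In the fit of SKMEL28 alone the change of 0.44 passed (edgeR adjusted p = 0.0463). FOXO6, the fourth family member, was named after its values were seen. It fell in SKBR3 from 33.8 and 31.8 to 10.1 and 10.7 CPM and in AU565 from 14.7 and 12.4 to 6.47 and 5.86 CPM. In 94T778 FOXO6 rose at a low level, from 0.854 and 0.505 CPM (5 and 3 reads) to 2.02 and 1.76 CPM (16 and 14 reads). That call was lost without untreated replicate 2 (log2 fold change 1.13) or torkinib replicate 1 (1.36). FOXO6 stood at up to 1.05 CPM in the melanoma lines.

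FBXO32, which encodes atrogin-1, the substrate-recognition part of a ubiquitin ligase of muscle wasting, rose in both melanoma and both breast lines. SKBR3 went from 144 and 163 CPM to 614 and 635 CPM, and AU565 from 186 and 194 CPM to 588 and 585 CPM. SKMEL28 went from 135 and 137 CPM to 395 and 361 CPM. A375 started lower, at 33.8 and 28.1 CPM, and reached 49.2 and 50.6 CPM. In 94T778 the groups overlapped, at 127 and 135 CPM untreated and 143 and 131 CPM treated. The log2 fold change was 2.02 in SKBR3 (SE 0.08, edgeR adjusted p = 1.01e-21), 1.63 in AU565 (SE 0.08, edgeR adjusted p = 2.15e-19) and 1.48 in SKMEL28 (SE 0.08, edgeR adjusted p = 1.25e-17). It was 0.69 in A375 (SE 0.11, edgeR adjusted p = 2.48e-06), or 0.82 without A375 untreated replicate 1, and 0.06 in 94T778 (95% interval -0.11 to 0.23, edgeR adjusted p = 0.609). At 4 µM the responses of SKMEL28 and AU565 differed by -0.15 (95% interval -0.38 to 0.08, edgeR adjusted p = 0.337), and A375 responded less than SKMEL28 (-0.78, SE 0.14, edgeR adjusted p = 2.33e-05) and less than AU565 (-0.93, SE 0.13, edgeR adjusted p = 5.94e-07).

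CCNG2, which encodes cyclin G2, an unusual cyclin linked to cell cycle arrest, moved in opposite directions. It rose in SKBR3 from 17.1 and 27.9 CPM to 119 and 119 CPM and in AU565 from 30.8 and 32.1 CPM to 112 and 109 CPM. It fell in A375 from 27.3 and 22.4 CPM to 11.9 and 10.8 CPM. The untreated and treated libraries overlapped in 94T778, at 50.2 and 51.1 against 47.6 and 52.9 CPM, and in SKMEL28, at 15.4 and 21.9 against 16.7 and 16.7 CPM. The log2 fold change was 2.37 in SKBR3 (SE 0.13, edgeR adjusted p = 5.94e-18), 1.81 in AU565 (SE 0.12, edgeR adjusted p = 7.17e-16) and -1.12 in A375 (SE 0.18, edgeR adjusted p = 2.78e-06). Without untreated replicate 1 or 2 the SKBR3 change was 2.08 or 2.79, and without untreated replicate 1 the A375 change was -0.98 (edgeR adjusted p = 0.00016). It was -0.01 in 94T778 (edgeR adjusted p = 0.992) and -0.21 in SKMEL28 (edgeR adjusted p = 0.338). At the same dose the A375 response lay below that of AU565 by 2.93 (log2 difference -2.93, SE 0.21, edgeR adjusted p = 6.87e-14). In the annotation 4 genes on the opposite strand overlap CCNG2, and reads from them cannot be told apart because the strand setting of the counting is not given in the sources used here.

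TXNIP, which encodes the thioredoxin-interacting protein that limits glucose uptake, rose in 4 lines and had the largest rise of the 8 genes in 94T778 and in SKBR3. The 94T778 libraries went from 161 and 157 CPM to 1174 and 1343 CPM. SKBR3 had the lowest untreated level, 15.8 and 29.8 CPM, and reached 348 and 337 CPM. A375 went from 178 and 154 CPM to 406 and 347 CPM and AU565 from 237 and 238 CPM to 578 and 569.6 CPM. SKMEL28 changed least, from 186 and 181 CPM to 207 and 198 CPM, with the treated libraries just above the untreated ones. The log2 fold change was 2.98 in 94T778 (SE 0.11, edgeR adjusted p = 7.91e-23), 3.87 in SKBR3 (SE 0.13, edgeR adjusted p = 9.92e-24), 1.19 in A375 (SE 0.10, edgeR adjusted p = 7.12e-12) and 1.27 in AU565 (SE 0.10, edgeR adjusted p = 2.67e-13). Without untreated replicate 1 or 2 the SKBR3 change was 3.51 or 4.43, both outside the 95% interval of the full fit (3.60 to 4.14). In SKMEL28 it was 0.14 (95% interval -0.07 to 0.36, edgeR adjusted p = 0.297), and 0.17 in the fit of that line alone (edgeR adjusted p = 0.00399). At 4 µM the responses of A375 and AU565 differed by -0.09 (95% interval -0.38 to 0.21, edgeR adjusted p = 0.724), and both exceeded that of SKMEL28 by more than 1 on the log2 scale (1.05 for A375, edgeR adjusted p = 7.57e-07; the SKMEL28 response minus that of AU565 was -1.13, edgeR adjusted p = 8.34e-08).

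PIK3IP1, an inhibitor of phosphoinositide 3-kinase at the cell surface, fell in 94T778 and rose in the breast lines. In 94T778 it went from 14.4 and 11.4 CPM to 3.54 and 2.77 CPM, a log2 fold change of -2.02 (SE 0.24, edgeR adjusted p = 6.47e-09). In SKBR3 it went from 29.8 and 27.7 CPM to 48.1 and 54.6 CPM, a change of 0.84 (SE 0.13, edgeR adjusted p = 1.06e-06), or 0.88 without untreated replicate 1 and 0.79 without untreated replicate 2. In AU565 it went from 13.2 and 14.4 CPM to 21.1 and 17.3 CPM, a change of 0.47 (SE 0.16, edgeR adjusted p = 0.0144). The AU565 call was lost without untreated replicate 1 (0.39, adjusted p = 0.118) or torkinib replicate 1 (0.33, adjusted p = 0.186). The melanoma lines hardly expressed the gene: A375 libraries held 2 and 4 reads untreated and 3 and 4 treated, and SKMEL28 libraries held 4 and 7 untreated and 8 and 1 treated, so a change was not detectable at this depth. A 94T778 share of 1.97% in A375 untreated replicate 1 would make 84.5% of the level of PIK3IP1 in that library, against 0.937% to 7.46% for the other 7 genes. PIK3IP1 overlaps the antisense gene PIK3IP1-AS1.

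BCL6, a transcriptional repressor best known from germinal centre B cells, changed mainly in 94T778. There it rose from 22.4 and 23.2 CPM to 59.9 and 59.98 CPM, a log2 fold change of 1.39 (SE 0.11, edgeR adjusted p = 3.63e-13). In AU565 it rose slightly, from 50.8 and 51.6 CPM to 61.8 and 65.5 CPM (0.32, SE 0.09, edgeR adjusted p = 0.00446), and the call was lost without torkinib replicate 2 (0.26, adjusted p = 0.0814) and with no filter on low counts (0.26, adjusted p = 0.0611). In SKBR3 it fell from 25.01 and 26.7 CPM to 19.3 and 21.9 CPM (-0.33, SE 0.13, edgeR adjusted p = 0.0381). That call was lost without untreated replicate 2 (-0.28, adjusted p = 0.182), without torkinib replicate 1 (-0.25, adjusted p = 0.219) and in DESeq2 (-0.30, adjusted p = 0.114). It was also lost with RLE size factors (adjusted p = 0.0565), with no filter on low counts (adjusted p = 0.0836) and in the fit of that line alone (adjusted p = 0.118). The changes of -0.21 in A375 (from 18.7 and 15.5 to 14.9 and 14.5 CPM, edgeR adjusted p = 0.265) and 0.16 in SKMEL28 (from 57.3 and 49.9 to 61.4 and 57.6 CPM, edgeR adjusted p = 0.164) did not pass the test. In the fit of SKMEL28 alone the change of 0.19 passed (edgeR adjusted p = 0.0373). BCL6 overlaps 2 antisense genes.

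Of 8 markers of blood and endothelial cells, 7 were in the files. As parts of the library totals they summed to 18.7 to 23.0 CPM in untreated SKBR3 and 149 to 158 CPM with torkinib, and to 29.8 to 29.99 against 79.1 to 80.8 CPM in AU565. Most of each sum was 1 gene, the endothelial cadherin CDH5. It rose in normalised CPM from 19.0 ± 3.78 to 166 ± 4.54 in SKBR3 and from 26.8 ± 0.141 to 80.1 ± 2.49 in AU565 (SD, n = 2). VWF, another endothelial gene, was low in both lines; its log2 fold change was -0.96 in SKBR3 (edgeR adjusted p = 0.249) and -1.41 in AU565 (edgeR adjusted p = 0.0103). LYZ and HBB were at 0 in every library of both lines, PTPRC was at 0 in treated SKBR3 and CD3E was at 0 in AU565.

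**Figure D3:**
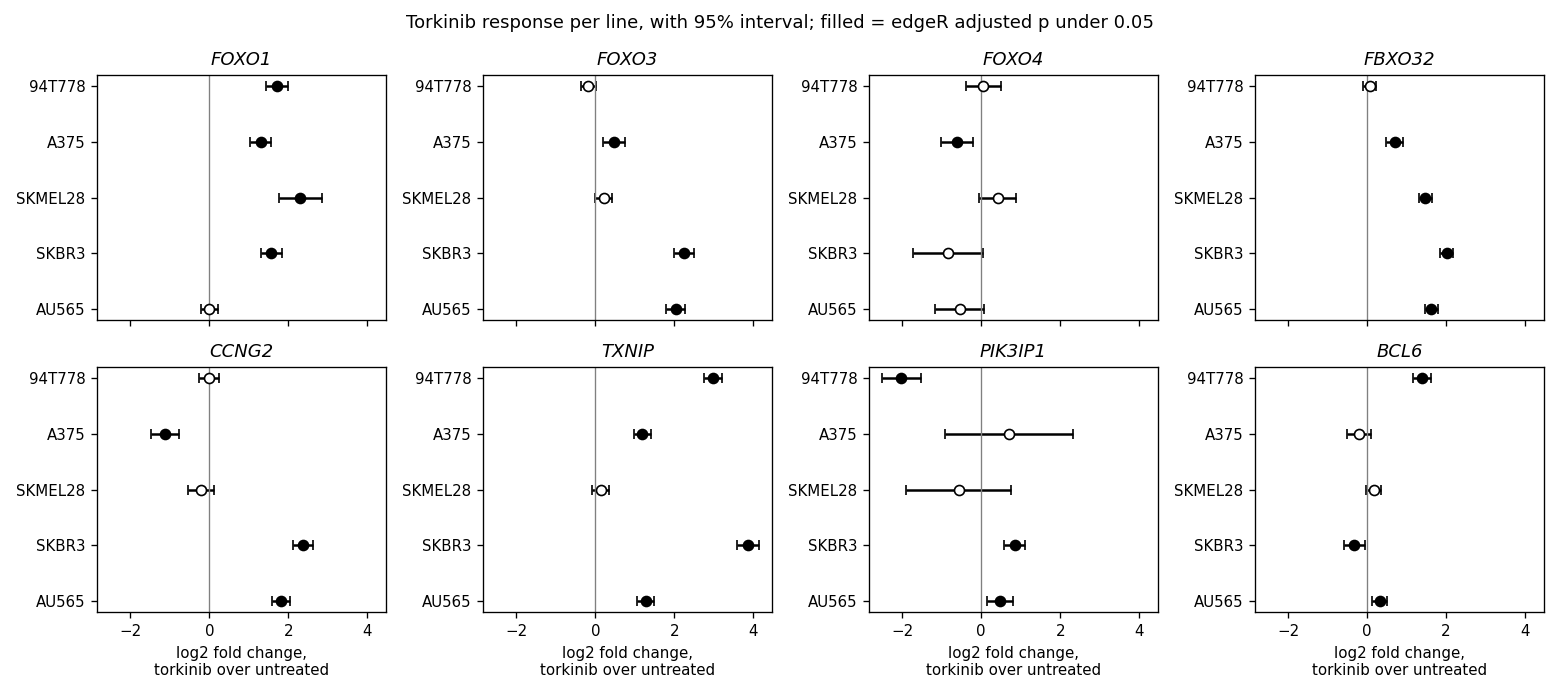
Log2 fold change, torkinib over untreated, of the 8 genes in each line with its 95% interval, filled where the edgeR adjusted p is under 0.05. CCNG2 lies at -1.12 in A375 and at 1.81 and 2.37 in the breast lines, and the widest intervals are those of PIK3IP1 in the melanoma lines.

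Averaged over the 5 lines with equal weight, 6 of the 8 genes rose and 1 fell, beside 56.4% of all genes called (28.4% higher and 28.1% lower). TXNIP rose by 1.89 (log2, SE 0.05, edgeR adjusted p = 3.95e-28), FOXO1 by 1.38 (SE 0.07, edgeR adjusted p = 1.26e-18), FBXO32 by 1.18 (SE 0.04, edgeR adjusted p = 7.06e-25) and FOXO3 by 0.96 (SE 0.05, edgeR adjusted p = 4.13e-18). CCNG2 averaged 0.57 (SE 0.07, edgeR adjusted p = 1.98e-09) and BCL6 0.27 (SE 0.05, edgeR adjusted p = 3.92e-05). CCNG2 was called higher only in SKBR3 and AU565, which derive from the same patient, and lower in A375. BCL6 rose by 1.39 in 94T778, and its changes in the other lines ran from -0.33 in SKBR3 to 0.32 in AU565. PIK3IP1 averaged -0.12 (edgeR adjusted p = 0.772). FOXO4 averaged -0.31 (SE 0.13, edgeR adjusted p = 0.0446), a call not made by DESeq2 (adjusted p = 0.0729), by limma-voom (adjusted p = 0.13) or with library totals only (adjusted p = 0.075). It was also lost on leaving out any 1 of 12 libraries, with adjusted p from 0.0532 to 0.815. Without SKBR3 untreated replicate 2 the FOXO4 average was -0.07 (adjusted p = 0.815).

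The response differed between the 5 lines for all 8 genes, beside 68.4% of all genes tested. Among the 3 lines at 4 µM, 5 of 8 genes differed in each pair. Between A375 and SKMEL28 the 5 were beside 28.4% of all genes (13.4% with the larger and 15.1% with the smaller value in A375). A375 had the larger TXNIP response and the smaller FBXO32 response. For CCNG2, which fell in A375 and was not called in SKMEL28, the log2 difference was -0.91 (SE 0.25, edgeR adjusted p = 0.00395). FOXO1 (-1.01, SE 0.32, edgeR adjusted p = 0.0166) and FOXO4 (-1.03, SE 0.30, edgeR adjusted p = 0.00899) also differed in that pair. Both of these calls were lost without SKMEL28 untreated replicate 2 (FOXO1 -1.26, adjusted p = 0.0612; FOXO4 -0.86, adjusted p = 0.0846). The FOXO1 call was also lost without SKMEL28 untreated replicate 1 (-0.88, adjusted p = 0.0922) or torkinib replicate 1 (-0.91, adjusted p = 0.0683). Between A375 and AU565 the 5 were beside 38.0% (19.3% larger and 18.7% smaller in A375). CCNG2 fell in A375 and rose in AU565. The log2 fold changes of FOXO3, FBXO32, CCNG2 and BCL6 were lower in A375, and that of FOXO1 was higher. For BCL6 that difference was -0.53 (SE 0.17, edgeR adjusted p = 0.0151), and it was lost without A375 untreated replicate 1 (-0.39, adjusted p = 0.15), A375 torkinib replicate 1 (-0.54, adjusted p = 0.0565) or AU565 torkinib replicate 2 (-0.47, adjusted p = 0.0589), and with no filter on low counts (-0.50, adjusted p = 0.0632). Between SKMEL28 and AU565 the 5 were beside 34.8% (18.9% larger and 15.9% smaller in SKMEL28); CCNG2 (-2.02, SE 0.20, edgeR adjusted p = 3.64e-10), FOXO3 and TXNIP responded less in SKMEL28 and FOXO1 more. The FOXO4 difference of 0.96 in that pair (SE 0.38, edgeR adjusted p = 0.0462) was lost on leaving out 7 of the 8 libraries of the pair 1 at a time, which moved it between 0.79 and 1.04. It was also lost with RLE size factors (adjusted p = 0.0512), with library totals only (adjusted p = 0.0604), in DESeq2 (adjusted p = 0.0963) and in limma-voom (adjusted p = 0.078). In the same pair the PIK3IP1 difference of -1.04 did not pass (edgeR adjusted p = 0.261) and was -2.90 without SKMEL28 torkinib replicate 1 (adjusted p = 0.0388).

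**Figure D4:**
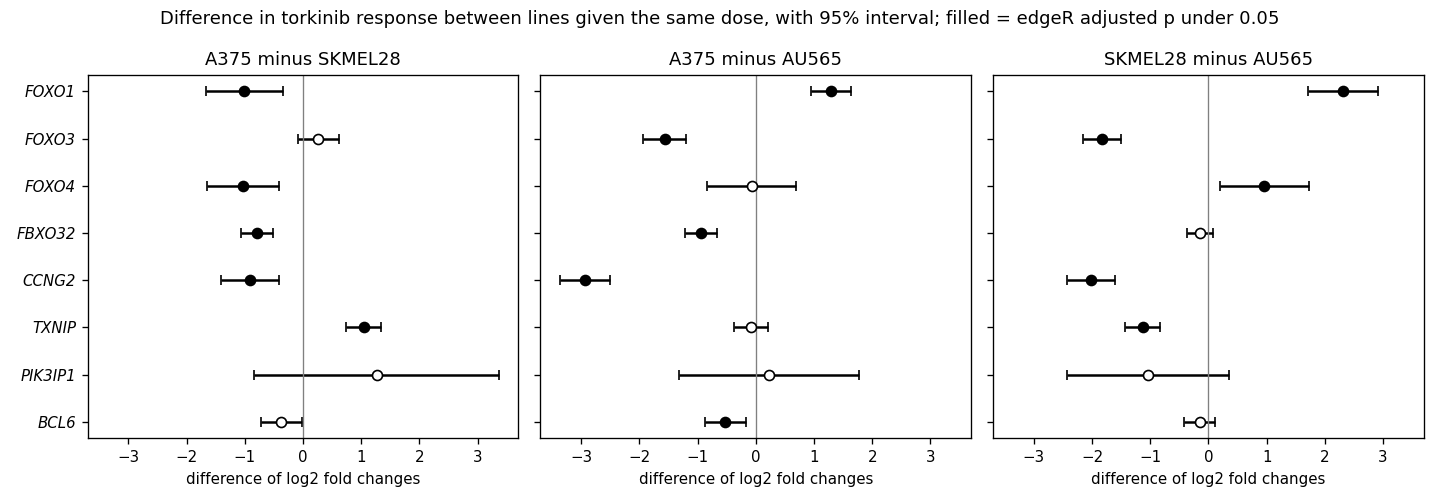
Differences of log2 fold changes between pairs of lines given 4 µM, with 95% intervals, filled where the edgeR adjusted p is under 0.05. CCNG2 lies below 0 in all 3 pairs, from -2.93 to -0.91, and the PIK3IP1 intervals span 0 in all 3.

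Other genes reported to be raised by FOXO factors formed a list of 40, of which 36 were tested; FASLG, IGFBP1, G6PC and PCK1 had too few counts. On the average of the lines 18 rose and 9 fell, 27 of 36 or 75%, beside 56.4% of all genes called (28.4% higher and 28.1% lower), with a median log2 fold change of 0.15 beside -0.01 over all genes. By line, 17 rose and 5 fell in SKBR3, 22 and 10 in 94T778, 17 and 11 in AU565, 14 and 11 in SKMEL28 and 8 and 12 in A375. Called were thus 61.1% of the list in SKBR3 beside 51.3% of all genes, 88.9% beside 47.5% in 94T778, 77.8% beside 55.6% in AU565, 69.4% beside 44.0% in SKMEL28 and 55.6% beside 42.8% in A375. In SKBR3 the number that fell was 3 without untreated replicate 2, without torkinib replicate 1 or in the fit of that line alone. With genes without counts in a group set at their bound against a floor of 3 counts per group, or left out where both groups were at or under it, the median was 0.47 in 94T778, 0.45 in SKBR3, 0.33 in AU565, 0.16 in SKMEL28 and -0.10 in A375. A375 thus had the lowest median, and it was also the line in which CCNG2 fell.

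**Figure D5:**
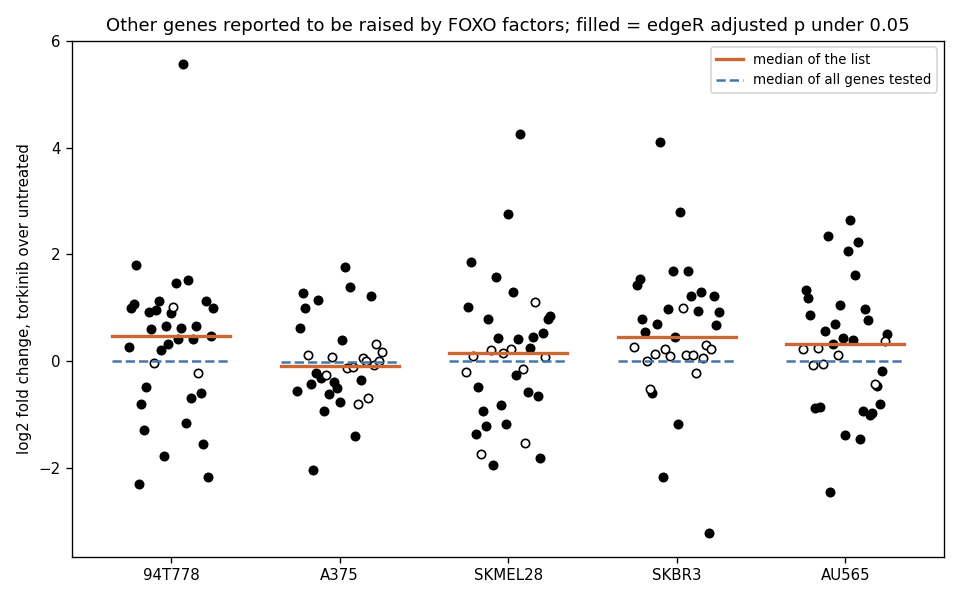
Log2 fold change, torkinib over untreated, of the other reported FOXO targets in each line, 1 point per gene, filled where the edgeR adjusted p is under 0.05; genes without counts in a group of the line are not drawn, which leaves 33 to 35 points. Solid lines are the medians of the list, from -0.10 in A375 to 0.47 in 94T778, and dashed lines the medians of all genes tested.

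In that list 3 genes rose in all 5 lines. BBC3, which encodes the apoptosis protein PUMA, rose by 1.08 to 1.86 per line and by 1.39 on average (log2, SE 0.08, edgeR adjusted p = 5.74e-17). MXI1, an antagonist of MYC, rose by 0.41 to 1.69 and by 1.14 on average (SE 0.05, edgeR adjusted p = 1.46e-21). Of 30 genes of the list with promoter windows, MXI1 was the only 1 with GTAAACAA, beside 1.18% of all genes with windows. GTAAACA was in 2 of the 30, MXI1 and BCL2L11, beside 4.19% of all genes with windows. BBC3 and ATG14 did not have it. ATG14, an autophagy gene, rose by 0.62 to 1.42 and by 1.08 on average (SE 0.05, edgeR adjusted p = 8.06e-20). CAT, which encodes catalase, fell in all 5 lines, by 0.62 on average (log2 -0.62, SE 0.04, edgeR adjusted p = 1.51e-15); in A375 its change of -0.23 (edgeR adjusted p = 0.0318) was lost in DESeq2 (adjusted p = 0.0768), with library totals only (adjusted p = 0.129) and without any 1 of the 4 libraries of that line, with adjusted p from 0.0574 to 0.18. GABARAPL1, also of autophagy, rose in 94T778, SKBR3 and AU565 and fell in A375 (-0.39, edgeR adjusted p = 0.00176).

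Further list members were named after their values were seen. IRS2, an adaptor of the insulin receptor, rose in A375 from 132 and 128 to 445 and 440.4 CPM, in SKMEL28 from 70.8 and 76.5 to 188 and 174 CPM and in 94T778 from 22.0 and 19.2 to 55.9 and 58.1 CPM. In AU565 IRS2 rose from a low level, 0.532 and 0.823 CPM (5 and 6 reads), to 3.42 and 4.83 CPM (18 and 33 reads), a log2 fold change of 2.64 (SE 0.39, edgeR adjusted p = 3.4e-07). SKBR3 held 1 and 6 reads of it untreated and 6 and 7 treated (edgeR adjusted p = 0.2). INSR, the insulin receptor itself, rose in SKBR3 from 12.3 and 12.03 to 81.7 and 86.5 CPM and in AU565 from 10.0 and 10.3 to 40.1 and 44.2 CPM, and held 0 to 3 reads per library in 94T778. In A375 INSR rose less, from 21.0 and 20.3 to 28.5 and 25.7 CPM. That call was lost without untreated replicate 2 (log2 fold change 0.38) or torkinib replicate 1 (0.32). SKMEL28 libraries held 21.5 and 21.6 CPM of INSR untreated and 23.4 and 27.5 CPM treated. PDK4, a brake on pyruvate use, held 0 and 1 reads in untreated 94T778 and 41 and 36 with torkinib, and 0 and 2 reads in untreated SKMEL28 and 26 and 26 with torkinib. PDK4 also rose in SKBR3 and AU565, and in A375 it stood at 27.0 and 26.4 CPM untreated and 21.9 and 28.0 CPM treated. The cell cycle inhibitor CDKN1B rose in 94T778, SKMEL28, SKBR3 and AU565 by 0.57 to 0.78 on the log2 scale; its A375 change of -0.32 (edgeR adjusted p = 0.0281) was lost in DESeq2 (adjusted p = 0.0725), with library totals only (adjusted p = 0.0863) and without any 1 of the 4 libraries of that line, with adjusted p from 0.0517 to 0.121. CDKN2D, of another inhibitor family, rose in 94T778 (0.96, edgeR adjusted p = 0.000302) and fell in the other 4 lines; its A375 fall of -0.94 was -0.68 without torkinib replicate 1 (edgeR adjusted p = 0.0581).

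Of 3 genes reported to be lowered by FOXO factors, FOXM1, which drives mitotic genes, fell in all 5 lines. Its average log2 fold change was -3.47 (SE 0.06, edgeR adjusted p = 1.11e-34), from -2.13 in A375 to -4.78 in AU565. In AU565 FOXM1 went from 118 and 109 CPM to 4.57 and 3.81 CPM. The labels state that doses were picked to halt the cell cycle. CCND1, cyclin D1, rose in 94T778 (0.72, edgeR adjusted p = 2.15e-10) and fell in A375 (-1.003, edgeR adjusted p = 2.08e-13) and AU565 (-0.49, edgeR adjusted p = 5.81e-07). CCND2, cyclin D2, had counts mainly in 94T778, where it went from 8.37 and 9.25 to 18.4 and 17.9 CPM (log2 fold change 1.04, edgeR adjusted p = 0.000211). In DESeq2 the CCND2 change was of like size, 1.03, with an adjusted p of 0.959.

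Upstream of FOXO, 21 of 22 listed signalling genes were tested, and on the average of the lines 10 rose and 7 fell, beside 28.4% of all genes higher and 28.1% lower, with a median log2 fold change of 0.07. RICTOR, the defining subunit of the MTOR complex that acts on AKT, rose in 94T778, SKMEL28, SKBR3 and AU565, with an average of 0.63 (SE 0.04, edgeR adjusted p = 3.56e-15) and 0.00 in A375. IGF1R, a growth factor receptor, rose by 1.28 in each breast line and by 0.33 in A375 (edgeR adjusted p = 0.00122) and fell in SKMEL28 (-0.56, edgeR adjusted p = 2.91e-07). Its 94T778 change of 0.19 (edgeR adjusted p = 0.0357) was lost in 6 of the alternatives, with adjusted p from 0.0556 to 0.44. The kinase AKT1 averaged -0.42 (SE 0.04, edgeR adjusted p = 6.38e-13), its activator PDPK1 0.41 (SE 0.04, edgeR adjusted p = 6.47e-12) and PHLPP2, a phosphatase of AKT, -0.57 (SE 0.06, edgeR adjusted p = 3.72e-11). The AKT1 group mean went from 329 to 189 CPM in SKBR3 and from 341 to 203 CPM in AU565. It fell less in 94T778 and SKMEL28 and went from 94.0 to 91.9 CPM in A375. The 94T778 call was lost with library totals only (-0.19, edgeR adjusted p = 0.052). The SKMEL28 call was lost with no filter on low counts (-0.21, edgeR adjusted p = 0.0864). Both calls were lost without untreated replicate 1 of the line, at -0.23 in 94T778 and -0.15 in SKMEL28. The SKMEL28 call was also lost without torkinib replicate 1 (-0.22) or 2 (-0.21). PHLPP2 went from 32.8 to 33.1 CPM in SKBR3 and was lower with torkinib in the other lines. INSR, IRS2 and RICTOR are also in the list of reported targets.

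Among 26 listed partners and modifiers 25 were tested, and on average 7 rose and 11 fell, beside 28.4% of all genes higher and 28.1% lower, with a median log2 fold change of -0.16. SKP2, a ubiquitin ligase subunit that marks FOXO1 for breakdown, fell in all 5 lines, from -0.44 in A375 to -2.02 in 94T778 and -1.04 on average (SE 0.07, edgeR adjusted p = 2.39e-16); the A375 call was lost without torkinib replicate 1 of that line (-0.24, adjusted p = 0.236). The deacetylase SIRT1 averaged 0.77 (SE 0.05, edgeR adjusted p = 4.59e-16) and the acetyltransferase EP300 0.40 (SE 0.04, edgeR adjusted p = 6.2e-11). YWHAE, an adaptor that binds phosphorylated FOXO proteins, fell in all 5 lines, by 0.37 on average (log2 -0.37, SE 0.03, edgeR adjusted p = 2.8e-12), although with library totals only the 94T778 change of -0.17 did not pass (adjusted p = 0.0543). Its relative YWHAQ fell in 4 lines and rose in SKBR3 (0.44, edgeR adjusted p = 7.11e-05). The deubiquitinase USP7 averaged -0.31 (SE 0.03, edgeR adjusted p = 3.66e-10). All changes in these lists are of messenger RNA, and the lists were drawn up with earlier results of these data known.

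For each of the 8 genes the closest patterns over the 20 libraries were sought among 14911 genes, by Pearson's r of log2 CPM, as a description of libraries that share lines and treatment. FOXO1 was closest to ZNF17 (r = 0.952) and TUSC1 (r = 0.945), FOXO3 to JAK1 (r = 0.962) and ZNF292 (r = 0.955), and FOXO4 to ZCCHC24 (r = 0.935) and HAUS6 (r = 0.930). FBXO32 was closest to MTMR3 (r = 0.943) and J01415.4 (r = 0.940), CCNG2 to RBMS2 (r = 0.927) and MAP3K5 (r = 0.917), and TXNIP to SMG1 (r = 0.910) and VCPIP1 (r = 0.904). PIK3IP1 was closest to RARRES3 (r = 0.977) and TNF (r = 0.965), and BCL6 to TLK1 (r = 0.905) and CREB3L2 (r = 0.890). None of the 8 had another of the 8 among its closest pair.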

How the data were processed

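Per the labels' protocols, total RNA was prepared with a Qiagen RNeasy midi kit. The authors deposited whole-number counts of reads per gene symbol, 1 file per library, with no normalization. The tools HISAT2 2.04, HTSeq 0.6.1 and limma 3.34.9 and the build hg19 (GRCh37) are named in the submitters' processing notes. Nothing on what each did, on the annotation or on the strandedness of counting is given in the sources used here. The 5 summary lines of the counter, 37.6 to 52.2% of reads per library, stayed out of library sizes and tests.

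The analysis used edgeR 4.0.16 in R 4.3.3 (TMM factors, filterByExpr, quasi-likelihood test), with 10 group means in 1 fit, which gives 1 shared estimate of spread (residual degrees of freedom 10, prior degrees of freedom 25.6, common biological coefficient of variation 0.0547). Adjusted p-values are Benjamini-Hochberg over the 16698 genes tested, and calls were made at 0.05. Contrasts were torkinib against untreated per line, their average, any difference between lines, and differences between the 3 lines at 4 µM. Changes are log2 fold changes with their standard error. DESeq2 1.42.0, limma-voom (limma 3.58.1), other scalings and filters, a replicate block, fits of single lines and leaving out each library were alternatives. The scripts were tested on simulated data.

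The 8 genes and the gene lists were chosen with earlier results of these data known. Named from each list on FOXO signalling were the 5 genes with the smallest p on the average (3 for the list of lowered genes) and those called the same way in all 5 lines, and for each of the 8 genes the 2 closest genes with a mean of at least 1 CPM (log2 CPM, prior count 2). Overlapping genes came from GENCODE 29. The list symbol PECAM1 was not matched.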

Additional observations from a re-analysis of the deposited data

Results flagged for a closer look

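The torkinib response differed between the 5 lines for each of the 8 genes, by edgeR's F test of the difference itself. The adjusted p was 1.98e-11 for FOXO1, 1.36e-16 for FOXO3, 0.0137 for FOXO4, 4.74e-16 for FBXO32, 2.58e-17 for CCNG2, 3.85e-20 for TXNIP, 9.36e-10 for PIK3IP1 and 1.61e-10 for BCL6. The FOXO4 value was 0.0616 in DESeq2 and 0.0723 without SKMEL28 untreated replicate 2. Line and dose cannot be told apart in this test, and 68.4% of all genes tested passed it.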

How the results depend on the processing

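For the 8 genes, 2103 of 2198 recomputed values kept their direction and side of the threshold, 52 lost the call, 8 gained it and 35 changed sign, and 53 of 80 results held under each alternative run. Counts of called members stayed within 1.5 times in 273 of 275 recomputations. The exceptions were SKMEL28, with 6 of 8 called when only its 4 libraries were fitted, and A375 against SKMEL28, with 3 to 5 of 8 when 1 library was left out. Sign changes were all of values that did not pass the test. Outside the leave-one-out fits these were CCNG2 in 94T778 (0.10 with library totals only) and FOXO1 in AU565 (-0.058 with no filter, -8.8e-05 with the stricter filter). Over fits that left out 1 library, FOXO4 in 94T778 ranged from -0.20 to 0.35, FBXO32 there from -0.0062 to 0.12 and CCNG2 there from -0.090 to 0.064. CCNG2 in SKMEL28 ranged from -0.39 to 0.11, PIK3IP1 there from -2.44 to 0.10, FOXO4 in SKBR3 from -1.38 to 0.33, FOXO1 in AU565 from -0.021 to 0.011, PIK3IP1 on average from -0.49 to 0.013 and FOXO6 on average from -0.72 to 0.33. For A375 minus AU565, FOXO4 ranged from -0.18 to 0.049, TXNIP from -0.20 to 0.026 and PIK3IP1 from -0.19 to 0.71. The cause of these changes was not tested. With the replicate number as a block within each line the counts of called members were unchanged, at 4, 6, 2, 7 and 6 in the order of the lines above and 7 on average. Deviations of same-numbered libraries correlated at -0.0551 to 0.0676, so the numbers were not taken to pair them. Counts were low for PIK3IP1 in the melanoma lines, at 1 to 8 reads per library, and for FOXO4 in SKBR3, at 8 to 33 reads.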

Other observations

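ARRDC4, a relative of TXNIP and like it a known target of the glucose sensing factors MLXIP and MLXIPL, was looked up after the TXNIP values were seen. It rose in 94T778 from 19.3 and 21.7 to 105 and 107 CPM (log2 fold change 2.37, SE 0.12, edgeR adjusted p = 1.54e-18). In A375 it rose from 13.2 and 10.4 to 38.9 and 34.6 CPM (1.65, SE 0.15, edgeR adjusted p = 1.19e-11). In SKBR3 it rose from 2.21 and 4.99 to 15.9 and 18.8 CPM (2.22, SE 0.23, edgeR adjusted p = 2.63e-10). ARRDC4 fell in SKMEL28 from 146 and 143 to 92.7 and 91.4 CPM (-0.65, SE 0.09, edgeR adjusted p = 2.94e-07). In AU565, where TXNIP rose, ARRDC4 overlapped between groups, at 21.0 and 26.1 against 23.2 and 21.8 CPM (-0.05, 95% interval -0.34 to 0.23, edgeR adjusted p = 0.811). MLXIP fell in 94T778 (-0.77, SE 0.09, edgeR adjusted p = 3.92e-09) and rose in SKBR3 (0.35, SE 0.11, edgeR adjusted p = 0.00815). MLXIPL fell in SKBR3 (-1.07, SE 0.18, edgeR adjusted p = 5.09e-06) and AU565 (-0.88, SE 0.17, edgeR adjusted p = 2.87e-05). It held 0 to 2 reads per library in 94T778 and SKMEL28 and 2 to 14 reads in A375.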
